A study of Mus musculus with 24 samples.

Results

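Ucp2 and Ucp3, the mitochondrial uncoupling proteins other than Ucp1 that carry the name, and Slc25a4 and Slc25a5, the ADP/ATP carriers ANT1 and ANT2, were followed in the inguinal fat pad of mice, a subcutaneous white depot. They were chosen by name, and all 4 were found among the 17541 genes of the count table. RNA was read from the 3' end of transcripts with QuantSeq, which gives about 1 tag per transcript, so that CPM, counts scaled to 1 M tags of the library, do not scale with transcript length. Each of the 24 libraries came from 1 C57BL/6J WT mouse of a study on a high-fat diet. BAM15 is a mitochondrial uncoupler, a compound that carries protons across the inner membrane. Its dose and route are not given here. Aged BAM15 were 5 mice of 92 weeks given BAM15, Aged CTRL were 6 mice of 92 weeks with the control treatment, Young BAM15 were 6 mice of 16 weeks given BAM15, and Young CTRL, which the series names as its reference, were 7 mice of 16 weeks with the control treatment. All groups share the strain and the diet, so the diet itself was not compared with another.

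All 4 genes encode carriers of the inner mitochondrial membrane from the SLC25 family. The ADP/ATP carriers exchange ADP from the cytosol for ATP from the matrix, and with the phosphate carrier they feed and empty the ATP synthase. ADP/ATP carriers also let protons leak back across the membrane, and Ucp1 does so in brown fat when fatty acids activate it. Ucp2 and Ucp3 resemble Ucp1 in sequence, but their part in heat production is disputed. Ucp2 is known from immune cells and Ucp3 from skeletal muscle, brown fat and heart. In mice Slc25a4 is the ADP/ATP carrier of heart and muscle, and Slc25a5 that of dividing cells and most other tissues.

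Ucp3 and Ucp2 are neighbours on mouse chromosome 7 and read in the same direction. In build GRCm38 with the GENCODE M21 annotation, Ucp2 (ENSMUSG00000033685) spans chr7:100493337-100502020 and Ucp3 (ENSMUSG00000032942) chr7:100472990-100486432, both on the plus strand, with 6904 bases between them. Slc25a4 (ENSMUSG00000031633) spans chr8:46206797-46211284 on the minus strand, and Slc25a5 (ENSMUSG00000016319) chrX:36795651-36798807 on the plus strand. The promoter windows of Ucp2 and Ucp3, from 250 bases before to 50 bases after the RefSeq start in build GRCm38.p6, are shown because both genes lie side by side and yet their levels parted in some libraries. They cover chr7:100493108-100493407 and chr7:100472741-100473040 on the plus strand. Capitals mark matches on either strand to GGGCGG, the box bound by SP factors, and to AGGTCA, the half-site of many nuclear receptors; TATAAN and CCAAT were searched as well and had no match in these windows.
Ucp2: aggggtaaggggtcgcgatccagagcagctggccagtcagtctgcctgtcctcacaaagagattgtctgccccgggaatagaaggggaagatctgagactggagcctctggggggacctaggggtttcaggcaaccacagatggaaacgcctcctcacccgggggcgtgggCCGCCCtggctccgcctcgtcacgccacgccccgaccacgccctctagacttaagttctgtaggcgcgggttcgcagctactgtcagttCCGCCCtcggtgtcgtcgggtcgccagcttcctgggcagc
Ucp3: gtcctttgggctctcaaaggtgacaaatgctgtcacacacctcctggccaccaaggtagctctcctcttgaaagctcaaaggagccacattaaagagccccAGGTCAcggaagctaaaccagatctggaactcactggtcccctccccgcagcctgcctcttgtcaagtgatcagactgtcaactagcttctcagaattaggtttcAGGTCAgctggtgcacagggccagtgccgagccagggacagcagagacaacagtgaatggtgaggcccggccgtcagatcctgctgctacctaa
The Ucp2 window held 2 matches to GGGCGG, both on the minus strand and printed as CCGCCC, and none to AGGTCA. The Ucp3 window held 2 matches to AGGTCA, at -149 and -44 from the start, and none to GGGCGG. Of 32851 RefSeq promoter windows of the same length, 35.7% held GGGCGG, 16.3% AGGTCA, 24.8% TATAAN and 37.4% CCAAT, and a match is no more than a description.

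The coding sequences of Ucp2 and Ucp3 shared 73.7% of aligned bases and those of Slc25a4 and Slc25a5 77.4%, while pairs of an uncoupling protein with an ADP/ATP carrier shared 48.2 to 50.3%. The stretch that marks ADP/ATP carriers, 3 arginine codons followed by 3 methionine codons, is shown in capitals within coding bases 688 to 735 of both genes to show how close they are; 7 of these 48 bases differ.
Slc25a4: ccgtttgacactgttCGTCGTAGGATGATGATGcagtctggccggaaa
Slc25a5: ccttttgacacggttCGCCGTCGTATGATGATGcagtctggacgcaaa
The end of a transcript decides where 3' tags fall, and there the genes were distinct. Of the 451 words of 50 bases in the last 500 bases of the transcript, Ucp2, Ucp3 and Slc25a4 shared none with another annotated gene. Slc25a5 shared 118 of them with its processed copies Slc25a5-ps, Gm5529 and Gm5560, which were not analysed here. How the counting treated such tags is not given in the sources used here, so its level is uncertain.

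Library totals ran from 8.62 to 21.9 M counts. Each of the 10 adipocyte markers was counted in every library, with a summed level of 20070 to 89810 CPM, and Ucp1 lay near 0, as given below. In 4 libraries, Aged BAM15 2, Aged BAM15 5, Aged CTRL 2 and Young CTRL 4, the mitochondrial ribosomal transcript mt-Rnr2 held 0.121 to 0.257% of counts, against 0.722 to 2.26% in the other 20, and transcripts of the mitochondrial genome held 12.0 to 21.4%, against 4.82 to 9.27%. These 4 libraries also had the largest totals, 18.4 to 21.9 M counts, against 8.62 to 17.9 M in the other 20. Skeletal muscle markers stood out in 2 libraries, with Acta1, the actin of skeletal muscle, at 14545 CPM in Young BAM15 3 and 14063 CPM in Young CTRL 7. Results that rest on these libraries are given with and without them. In bulk tissue, fewer cells of a type and less RNA per cell cannot be told apart.

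Both ADP/ATP carriers had higher mean levels than Ucp2 and Ucp3 in each group. The mean of Ucp3 lay above that of Ucp2 in Aged BAM15, at 44.7 and 30.2 CPM, and below it in each other group. Slc25a4 averaged 491 ± 380 CPM over the 24 libraries (SD), which placed it at rank 212 of the 15939 genes tested and second among 43 genes of the SLC25 and UCP family, after the phosphate carrier Slc25a3 at 530 CPM. Slc25a5 averaged 101 ± 41.8 CPM, Ucp2 43.8 ± 18.1 CPM and Ucp3 26.6 ± 22.1 CPM (SD, 24 libraries). Slc25a4 lay above Slc25a5, and Slc25a5 above Ucp2, in 24 of 24 libraries. Ucp2 lay above Ucp3 in 19 libraries, and Ucp3 above Ucp2 in Aged BAM15 2, Aged BAM15 5, Aged CTRL 2, Young BAM15 1 and Young CTRL 4. Slc25a4 made up 82.2 ± 6.72% of the summed ADP/ATP carrier tags in Aged BAM15 (SD, n = 5), 75.6 ± 8.88% in Aged CTRL (SD, n = 6), 82.0 ± 8.03% in Young BAM15 (SD, n = 6), against 78.3 ± 13.2% in Young CTRL (SD, n = 7). The ranges overlapped. The counts behind these levels were 217 to 1164 per library for Ucp2, 90 to 1630 for Ucp3, 2426 to 14237 for Slc25a4 and 568 to 3554 for Slc25a5.

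**Figure D1:**
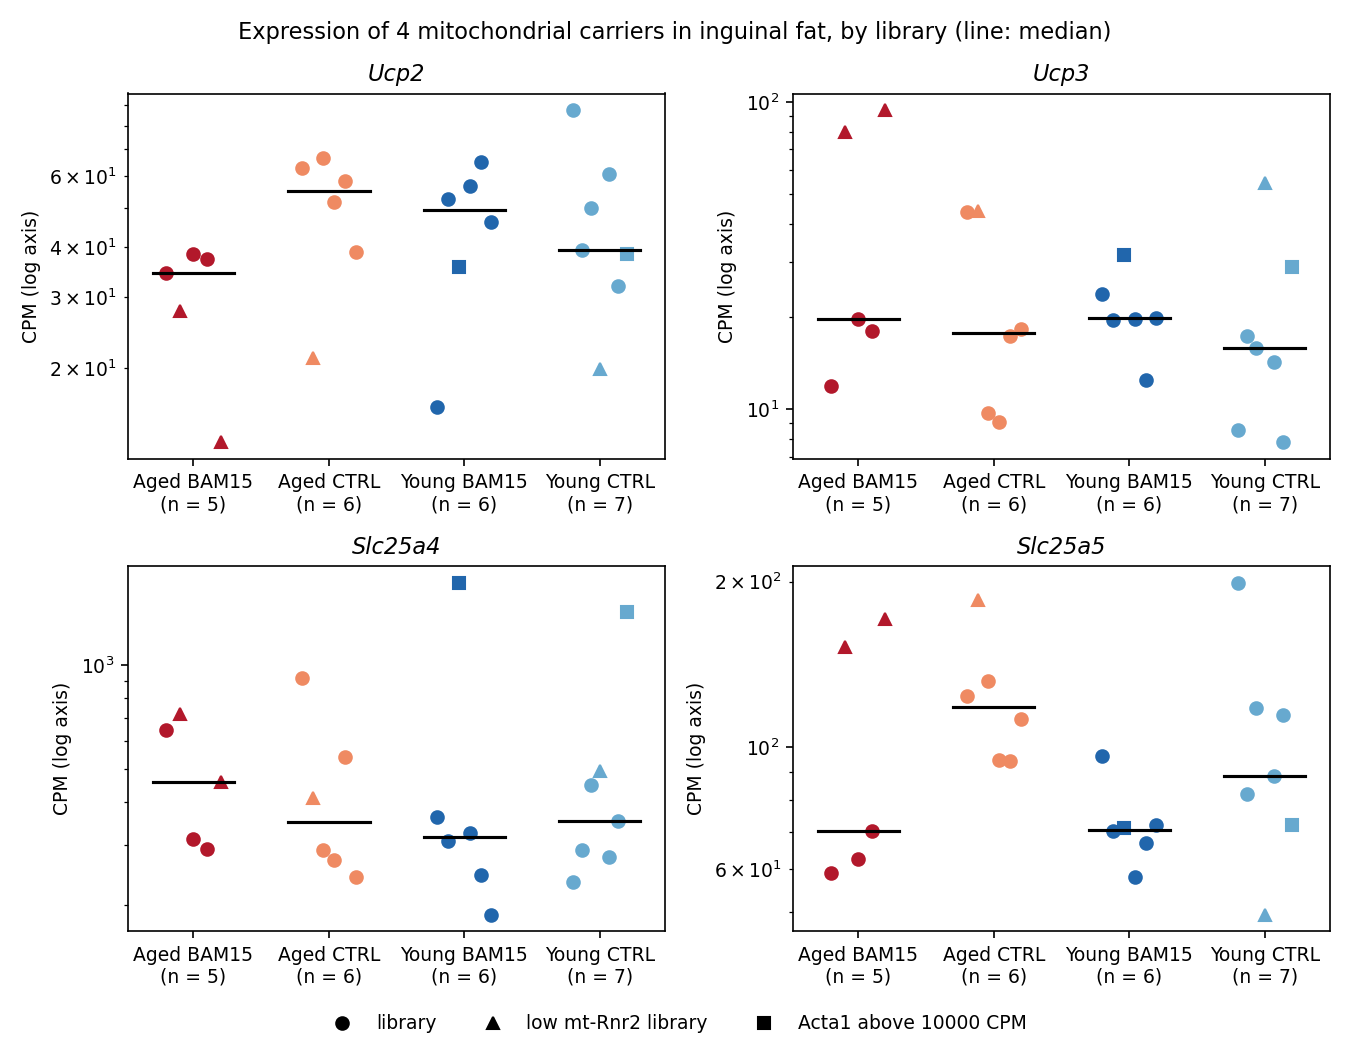
CPM of Ucp2, Ucp3, Slc25a4 and Slc25a5 on log axes in each library of the 4 groups; lines are group medians, triangles the 4 libraries with low mt-Rnr2 and squares the 2 libraries with Acta1 above 10000 CPM. Ranges of the groups overlap for each gene, the triangles lie at the top of their groups for Ucp3 and at the bottom for Ucp2, and the squares lie at 1428 and 1737 CPM for Slc25a4.

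None of the 4 genes passed the edgeR quasi-likelihood test at a Benjamini-Hochberg adjusted p under 0.05 in any comparison. The test called 0.207% of all genes in Aged CTRL against Young CTRL, 0% in each comparison of BAM15 with CTRL at the same age, 0% in the difference between both BAM15 effects, 0.427% in Aged BAM15 against Young BAM15 and 1.29% in Aged BAM15 against Young CTRL. In the test of any difference among the 4 groups it called 2.47% of genes, and the adjusted p values were 0.348 for Slc25a5, 0.386 for Ucp3, 0.506 for Ucp2 and 0.984 for Slc25a4. At an unadjusted p under 0.05 the test passed 9.1% of all genes in Aged BAM15 against Aged CTRL, 13.1% in Young BAM15 against Young CTRL and 5.08% in the difference between both effects, and none of the 4 genes; DESeq2 and limma-voom counts stand with the dependence on processing. A p above the threshold does not show that levels were equal, so the intervals of the differences are given.

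Ucp2 is an inner membrane carrier found widely, with high levels in macrophages and lymphocytes. It was at 34.4, 27.8, 38.4, 37.3 and 13.1 CPM in Aged BAM15 1 to 5, against a lowest, median and highest of 21.2, 55.1 and 66.6 CPM in Aged CTRL. In Young BAM15 the same 3 values were 16.1, 49.4 and 65.2 CPM, against 19.9, 39.4 and 87.4 CPM in Young CTRL. All 5 Aged BAM15 libraries lay below the mean of each other group but the ranges of all groups overlapped. Ucp2 averaged 30.2 ± 10.4 CPM in Aged BAM15 and 49.9 ± 17.1 CPM in Aged CTRL (SD, n = 5 and 6), a log2 difference of -0.72 ± 0.37 (SE, 95% interval -1.49 to 0.04, edgeR adjusted p = 0.576). In fold terms the interval ran from 0.357 to 1.03. In young mice the log2 difference between BAM15 and CTRL was -0.04 ± 0.34 (SE, interval -0.74 to 0.65, adjusted p = 0.975), and the difference between both BAM15 effects was -0.68 ± 0.50 (SE, adjusted p = 0.899). With age alone, Aged CTRL against Young CTRL, it was 0.09 ± 0.33 (SE, interval -0.60 to 0.78, adjusted p = 0.985).

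With the 4 low mt-Rnr2 libraries left out, Ucp2 was at 34.4, 38.4 and 37.3 CPM in Aged BAM15, against 38.8 to 66.6 CPM in Aged CTRL. The ranges then missed each other by a small margin. The log2 difference was -0.60 ± 0.34 (SE, adjusted p = 0.53), and 3.5% of all genes showed the same lack of overlap with lower values in Aged BAM15. With all libraries and the mean levels of the B cell and skeletal muscle markers as covariates, the log2 difference was -1.05 ± 0.33 for Aged BAM15 against Aged CTRL (SE, adjusted p = 0.324) and -0.55 ± 0.34 for Young BAM15 against Young CTRL (SE, adjusted p = 0.996), and the difference between both effects was -0.49 ± 0.45 (SE, adjusted p = 0.827). Markers of cells that carry Ucp2 also differed in range. Over all libraries the 12 macrophage markers summed to 762 to 1810 CPM in Aged BAM15 and 1123 to 2399 CPM in Aged CTRL, the 12 B cell markers to 92.1 to 1180 CPM in Aged BAM15 and 198 to 1014 CPM in Aged CTRL, and the 11 T cell markers to 9.47 to 229.9 CPM in Aged BAM15 and 23.2 to 94.2 CPM in Aged CTRL. Without the 4 libraries the macrophage sums were 762 to 1136 CPM in Aged BAM15 and 1123 to 1939 CPM in Aged CTRL, so that these ranges overlapped by a small margin. Their medians were 982 and 1636 CPM. B cell sums were then 196 to 715 CPM in Aged BAM15 and 198 to 415 CPM in Aged CTRL, with medians of 375 and 330 CPM. T cell sums were 9.47 to 229.9 CPM and 23.2 to 39.1 CPM, with medians of 197 and 26.7 CPM. The medians were thus lower in Aged BAM15 for macrophages and higher for B and T cells. In each of the 4 libraries left out, with 1335 to 2399 CPM, the macrophage sum was above every kept library of its group, while Ucp2 was below them. All 12 macrophage markers had counts in every library, while among the B cell markers Cd79a was at 0 in 10 of the 24. The part of macrophages and T cells in the Ucp2 difference was not tested.

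Ucp3, a close relative of Ucp2 that in mice is found mostly in muscle and brown fat, split the libraries in a different way. It was at 11.9, 79.8, 19.7, 17.97 and 94.0 CPM in Aged BAM15 1 to 5, against a lowest, median and highest of 9.10, 17.7 and 44.0 CPM in Aged CTRL. In Young BAM15 these were 12.4, 19.7 and 31.7 CPM, against 7.81, 15.8 and 54.4 CPM in Young CTRL. Aged BAM15 2 and 5 lay above every other library, while Aged BAM15 3 and 4 lay within the range of each other group and Aged BAM15 1 lay within the ranges of both CTRL groups. The log2 difference was 0.92 ± 0.55 for Aged BAM15 against Aged CTRL (SE, interval -0.22 to 2.05, adjusted p = 0.648) and 1.09 ± 0.53 for Aged BAM15 against Young CTRL (SE, interval 0.00 to 2.17, adjusted p = 0.297). The unadjusted edgeR p of the second was 0.0499, a level that 16.8% of all genes passed in that comparison. Against Young BAM15 it was 1.08 ± 0.55 (SE, adjusted p = 0.322), for Young BAM15 against Young CTRL 0.00 ± 0.51 (SE, interval -1.04 to 1.05, adjusted p = 0.999), and for Aged CTRL against Young CTRL 0.17 ± 0.51 (SE, interval -0.87 to 1.21, adjusted p = 0.979).

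The Ucp3 differences that involve Aged BAM15 rested on the libraries with low mt-Rnr2. In each of the 4, Ucp3 was above and Ucp2 below every library of its group outside these 4. Ucp3 was at 79.8 and 94.0 CPM in Aged BAM15 2 and 5. It was at 44.0 CPM in Aged CTRL 2 and 54.4 CPM in Young CTRL 4. In the same order Ucp2 was at 27.8, 13.1, 21.2 and 19.9 CPM. The margin in Aged CTRL was small, since Ucp3 was at 43.8 CPM in Aged CTRL 1. Of all genes, 10.9% lay above and 13.6% below the rest of the group in all 4 libraries, so this behaviour was common. Ucp3 made up 67.5 to 87.7% of the summed Ucp2 and Ucp3 tags in these 4 libraries and 8.92 to 59.5% in the other 20. Without the 4 libraries the log2 difference of Ucp3 turned to -0.25 ± 0.45 for Aged BAM15 against Aged CTRL (SE, adjusted p = 0.89) and to -0.33 ± 0.44 against Young BAM15 (SE, adjusted p = 0.973), and it was 0.11 ± 0.43 against Young CTRL (SE, adjusted p = 0.948). In these 4 libraries the 14 skeletal muscle markers summed to 315 to 9053 CPM and the 8 brown adipocyte markers to 99.2 to 317 CPM, inside the ranges of the other libraries for both. The brown marker sums of Aged BAM15 2, at 317 CPM, and Young CTRL 4, at 306 CPM, were exceeded only in the Acta1-rich libraries Young BAM15 3 and Young CTRL 7, at 629 and 484 CPM. Those of Aged BAM15 5 and Aged CTRL 2 were 99.2 and 109 CPM. Of the 8 brown markers, Cox8b, Cox7a1 and Cidea reached at most 296, 224 and 113 CPM, and Ucp1 at most 7.76 CPM. In the other 20 libraries Cox7a1 correlated with Slc25a4, the carrier of heart and muscle, at Pearson r = 0.97. How much of the brown marker sum came from muscle was not tested. Mitochondrial transcripts and library totals were high in the 4 libraries with low mt-Rnr2. The part of any of these in the Ucp3 level was not tested.

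**Figure D2:**
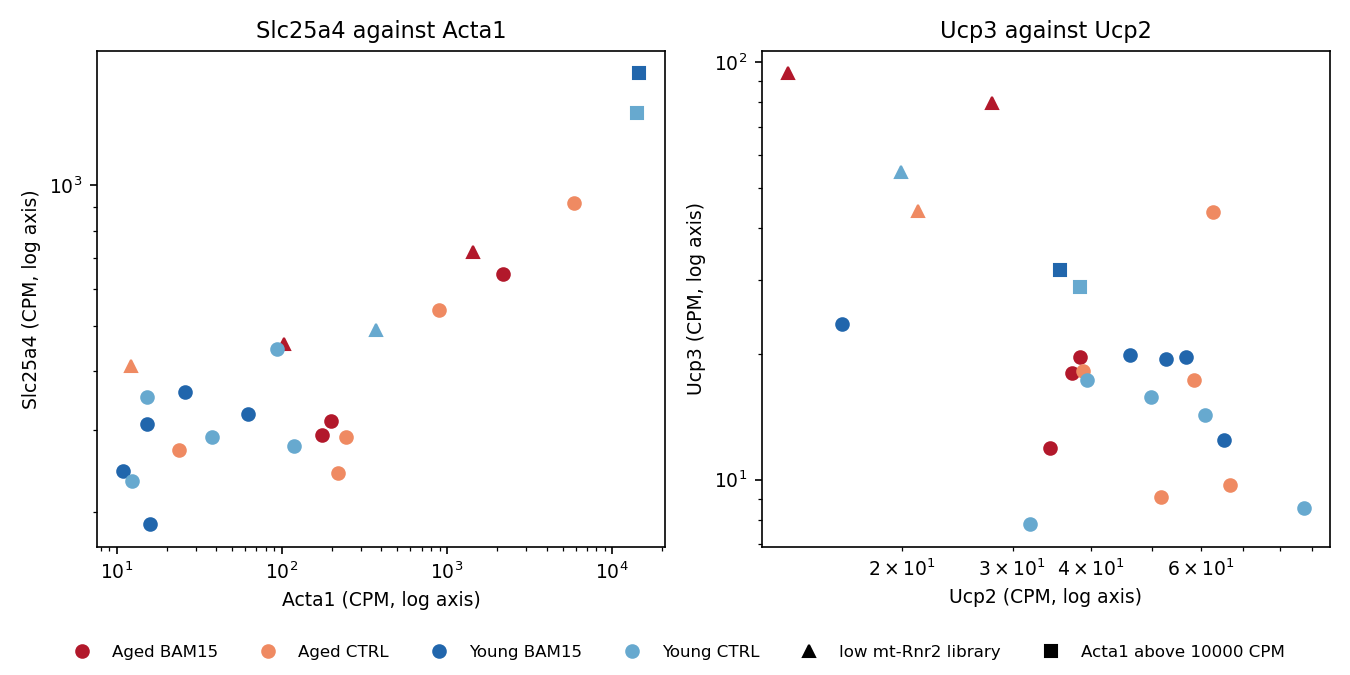
Left, CPM of Slc25a4 against CPM of Acta1, an actin of skeletal muscle, and right, CPM of Ucp3 against CPM of Ucp2, each point 1 library on log axes. Libraries with Acta1 above 1000 CPM hold the 5 highest Slc25a4 levels, from 646 to 1737 CPM, and the 4 low mt-Rnr2 libraries (triangles) sit at the upper left of the right panel.

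Slc25a4, the ADP/ATP carrier of muscle and heart, was the most abundant of the 4 genes and had the largest SD in CPM within each group. It was at 646, 719, 312, 292 and 458 CPM in Aged BAM15 1 to 5, against a lowest, median and highest of 243, 350 and 915 CPM in Aged CTRL. In Young BAM15 these were 188, 316 and 1737 CPM, against 233, 352 and 1428 CPM in Young CTRL. One library in each young group stood far above the rest, Young BAM15 3 at 1737 CPM over 188 to 361 CPM and Young CTRL 7 at 1428 CPM over 233 to 491 CPM. The log2 difference was 0.12 ± 0.54 for Aged BAM15 against Aged CTRL (SE, interval -0.99 to 1.24, adjusted p = 0.969), 0.07 ± 0.50 for Young BAM15 against Young CTRL (SE, interval -0.95 to 1.09, adjusted p = 0.975) and -0.17 ± 0.50 for Aged CTRL against Young CTRL (SE, interval -1.20 to 0.85, adjusted p = 0.978). In fold terms these intervals ran from 0.504 to 2.36, from 0.517 to 2.13 and from 0.4355 to 1.80.

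The highest levels of Slc25a4 were in the libraries with the highest muscle markers. The libraries with the 5 highest Slc25a4 levels were also the 5 with the highest sum of the 14 skeletal muscle markers. Slc25a4 was at 1428 and 1737 CPM in the 2 libraries with Acta1 above 10000 CPM, at 646 to 915 CPM in the 3 with Acta1 between 1000 and 10000 CPM, at 243 to 542 CPM in the 8 between 100 and 1000 CPM, and at 188 to 447 CPM in the 11 under 100 CPM. In these last 2 sets the medians of Slc25a4 were 302 and 308 CPM, so no rise was seen between them. Of the 14 markers Mb was at 0 in 4 libraries, Myh1 in 2, and Myh2, Atp2a1 and Actn3 in 1 each. The 14 together summed to 375 to 12810 CPM in Aged BAM15, 103 to 28330 CPM in Aged CTRL, 125 to 79900 CPM in Young BAM15 and 96.6 to 71080 CPM in Young CTRL. With the B cell and muscle markers as covariates the SE of the 5 differences between groups was 0.27 to 0.31. The log2 difference was then -0.19 ± 0.29 for Aged BAM15 against Aged CTRL (SE, adjusted p = 0.858) and 0.27 ± 0.30 for Young BAM15 against Young CTRL (SE, adjusted p = 0.996). Without the 2 libraries rich in Acta1 it was -0.32 ± 0.34 for Young BAM15 against Young CTRL (SE, adjusted p = 0.727) and 0.37 ± 0.32 for Aged CTRL against Young CTRL (SE, adjusted p = 0.868). The sign of these 2 differences was the opposite of that in all libraries, and none passed the test.

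Slc25a5, the ADP/ATP carrier of dividing cells and most tissues other than muscle, had lower means with BAM15 at both ages without passing the edgeR test. It was at 59.0, 152, 62.5, 70.4 and 171 CPM in Aged BAM15 1 to 5, against a lowest, median and highest of 94.1, 118 and 185 CPM in Aged CTRL. In Young BAM15 these were 57.9, 70.7 and 96.3 CPM, against 49.6, 88.4 and 199 CPM in Young CTRL. Aged BAM15 1, 3 and 4 lay below every Aged CTRL library, and Aged BAM15 2 and 5, which have low mt-Rnr2, lay above 5 of the 6. The log2 difference was -0.26 ± 0.32 for Aged BAM15 against Aged CTRL (SE, interval -0.91 to 0.39, adjusted p = 0.847) and -0.51 ± 0.29 for Young BAM15 against Young CTRL (SE, interval -1.11 to 0.09, adjusted p = 0.46). All 6 Young BAM15 libraries lay below the Young CTRL mean of 103 ± 48.4 CPM (SD), which Young CTRL 1 at 199 CPM raised. Keratinocyte markers summed to 1309 CPM in Young CTRL 1, the highest sum of all libraries, and mammary epithelium markers to 270.4 CPM, against at most 14.3 CPM in any other library. Its adipocyte markers had the lowest sum of all libraries, 20070 CPM. Without Young CTRL 1 the log2 difference of Slc25a5 in young mice was -0.27, and the part of these markers in it was not tested. The difference between both BAM15 effects was 0.25 ± 0.43 (SE, interval -0.63 to 1.13, adjusted p = 0.934). With age alone it was 0.26 ± 0.29 for Aged CTRL against Young CTRL (SE, interval -0.34 to 0.85, adjusted p = 0.922).

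Without the 4 libraries with low mt-Rnr2, Slc25a5 was the member with the largest BAM15 differences relative to its error at both ages. It averaged 64.0 ± 5.85 CPM in Aged BAM15 and 111 ± 16.9 CPM in Aged CTRL (SD, n = 3 and 5), without overlap, as did 3.5% of all genes in that direction. The log2 difference was -0.80 ± 0.26 (SE, interval -1.33 to -0.27, adjusted p = 0.29). In young mice Slc25a5 then ranged from 57.9 to 96.3 CPM in Young BAM15, against 72.2 to 199 CPM in Young CTRL, with Young CTRL 1 still at the top. The only young library left out, Young CTRL 4, had the lowest Slc25a5 of the 24 libraries, at 49.6 CPM. The aged libraries left out had the highest of their groups, 152 and 171 CPM in Aged BAM15 and 185 CPM in Aged CTRL. How far the differences rest on this choice of libraries was not tested. For Young BAM15 against Young CTRL the log2 difference was -0.65 ± 0.20 (SE, interval -1.06 to -0.24, adjusted p = 0.119), and for Aged BAM15 against Young CTRL -0.81 ± 0.25 (SE, interval -1.33 to -0.29, adjusted p = 0.138), again without overlap, as 3.31% of all genes in that direction. The unadjusted edgeR p values of these 3 differences were 0.0051, 0.00343 and 0.00387. In the same comparisons 11.2%, 19.5% and 14.4% of all genes were under 0.05, a looser limit than these p values. In the edgeR test of any difference among the 4 groups, the adjusted p of Slc25a5 was then 0.0576, and 485 of 16553 genes were called. Aged CTRL against Young CTRL then gave -0.01 ± 0.21 (SE, adjusted p = 0.997). With all 24 libraries, limma-voom with sample quality weights, which lets libraries far from their group count less, called Slc25a5 lower in Aged BAM15 than in Aged CTRL, with a log2 difference of -0.70 ± 0.20 (SE, adjusted p = 0.0338), as it called 6.06% of all genes in that comparison. It also called Slc25a5 in the test of any difference among the 4 groups, where it called 16.7% of all genes. No other setting tried called any of the 4 genes.

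**Figure D3:**
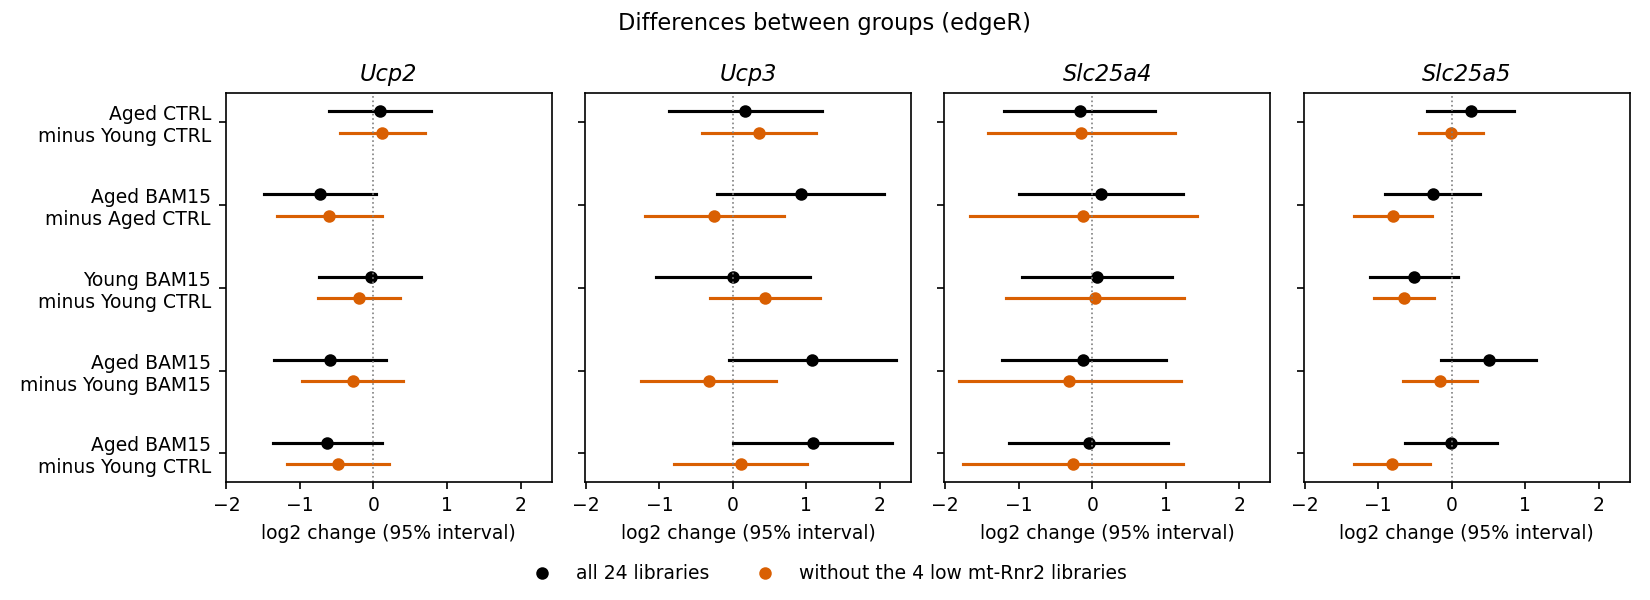
Log2 differences (points) with 95% intervals (lines) of the 4 genes in 5 comparisons, from edgeR with all 24 libraries (black) and after the 4 low mt-Rnr2 libraries were left out (orange). Without these libraries the Slc25a5 intervals of both BAM15 comparisons lie below 0 and the Ucp3 points of Aged BAM15 move toward or past 0, with 0.92 in all libraries and -0.25 without the 4 against Aged CTRL.

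The genes whose levels went most like those of each member were ranked by Pearson r of log2 CPM over the 24 libraries, after the group means were subtracted, among 10397 genes. They are a description of libraries that differ in depth and tissue make-up. For Slc25a4 the first 5 were Myl1, a fast-muscle myosin light chain, and Casq1, the calcium store of the sarcoplasmic reticulum, both at r = 0.95, then Tbx15, a T-box transcription factor, at 0.95, Tigar, a fructose bisphosphatase, at 0.94, and Prkab2, a subunit of AMP-activated kinase, at 0.94. In the 20 libraries without low mt-Rnr2 their r was 0.95 to 0.97. For Ucp2 the first 3 were Apbb1ip, a Rap1 effector of blood cells, at 0.89, Slfn2 at 0.87 and the GTPase regulator Gmip at 0.87. They kept an r of 0.74 to 0.87 in the 20 libraries.

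For Ucp3 the first 5 were Enpp4 at r = 0.93, Tmem140 at 0.90, Sdhb, an iron-sulphur subunit of succinate dehydrogenase, at 0.90, Tom1l2 at 0.90 and Gpx3, a secreted glutathione peroxidase, at 0.89. Their r was 0.75 to 0.84 in the 20 libraries. For Slc25a5 they were Cops7a, a subunit of the COP9 signalosome, at 0.86, the cyclophilin Ppia at 0.85, the small nucleolar host gene Snhg6 at 0.85, Tmed2, a cargo receptor between endoplasmic reticulum and Golgi, at 0.85 and the SNARE Vamp8 at 0.84. They had an r of 0.60 to 0.69 in the 20 libraries. Among the members themselves Ucp2 and Ucp3 had r = -0.61, or -0.24 in the 20 libraries, and Ucp3 and Slc25a4 had 0.50, or 0.63. Slc25a4 and Slc25a5 had -0.08, or -0.26.

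Of the other carriers named as uncoupling proteins, the 3 measured were low. Ucp1, the uncoupling protein of brown fat, averaged 0.117 ± 0.261 CPM in Aged BAM15, 0.621 ± 0.827 CPM in Aged CTRL, 1.49 ± 2.35 CPM in Young BAM15 and 1.46 ± 2.80 CPM in Young CTRL (SD, n = 5, 6, 6 and 7). It was at 0 in 4 Aged BAM15 libraries, 2 Aged CTRL libraries, 1 Young BAM15 library and 1 Young CTRL library, and its highest count in Aged BAM15 was 6. The Ucp1 medians, in the order of the means, were 0, 0.243, 0.203 and 0.506 CPM, below the mean in each group. Its highest values were 5.885 CPM in Young BAM15 and 7.76 CPM in Young CTRL, so the means of the young groups rest on few libraries. Slc25a14, the brain carrier also called UCP5, averaged 7.65 ± 2.30 CPM in Aged BAM15, 4.98 ± 1.35 CPM in Aged CTRL, 5.58 ± 1.33 CPM in Young BAM15 and 7.59 ± 2.03 CPM in Young CTRL (SD). Its log2 differences were 0.62 ± 0.27 for Aged BAM15 against Aged CTRL (SE, adjusted p = 0.496), -0.45 ± 0.25 for Young BAM15 against Young CTRL (SE, adjusted p = 0.459) and -0.61 ± 0.25 for Aged CTRL against Young CTRL (SE, adjusted p = 0.461). Slc25a27, the brain carrier also called UCP4, averaged 2.44 ± 1.29 CPM in Aged BAM15, 1.57 ± 1.44 CPM in Aged CTRL, 2.48 ± 1.23 CPM in Young BAM15 and 2.14 ± 2.03 CPM in Young CTRL (SD). None of the 3 passed the test in any comparison, and the other 2 genes of that list, Slc25a30 and Slc25a31, were not analysed here.

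The partners of the ADP/ATP carriers and the ATP synthase gave no called gene either. Of 17 ATP synthase genes, which include its inhibitory factor Atpif1, 0 passed in each comparison. Their median log2 difference was 0.00 for Aged BAM15 against Aged CTRL, beside 0.02 over all genes. It was -0.24 for Young BAM15 against Young CTRL, beside 0.03, with 16 of 17 negative. Without the 4 libraries with low mt-Rnr2 these medians were -0.29 and -0.23. Atp5pb, a stalk subunit, had the smallest p in the young comparison, with 220 ± 60.2 CPM in Young BAM15 and 313 ± 56.0 CPM in Young CTRL (SD, n = 6 and 7) and a log2 difference of -0.51 ± 0.21 (SE, adjusted p = 0.321). In Aged CTRL against Young CTRL it was Atp5g3, a subunit of the membrane ring, at -0.57 ± 0.28 (SE, adjusted p = 0.588), and in Aged BAM15 against Aged CTRL Atp5e, at -0.47 ± 0.24 (SE, adjusted p = 0.582). Of 6 adenine nucleotide and phosphate carriers tested 0 passed, and Slc25a17, the peroxisomal carrier of adenine nucleotides, had the smallest p with BAM15 at both ages. It averaged 27.1 ± 10.1 CPM in Aged BAM15 and 40.2 ± 7.25 CPM in Aged CTRL (SD, n = 5 and 6). The log2 difference was -0.57 ± 0.22 (SE, edgeR adjusted p = 0.43). Limma-voom called it at -0.94 ± 0.18 (SE, adjusted p = 0.00558), as it called 6.06% of all genes in that comparison. In Young BAM15 Slc25a17 averaged 26.6 ± 4.93 CPM, against 37.5 ± 7.44 CPM in Young CTRL (SD, n = 6 and 7). The log2 difference was -0.50 ± 0.20 (SE, edgeR adjusted p = 0.311). With age alone Slc25a42, a mitochondrial carrier of coenzyme A, had the smallest p of that list, at 0.59 ± 0.44 (SE, adjusted p = 0.822). Of 8 membrane and kinase partners, such as the outer-membrane channels Vdac1 to Vdac3 and the creatine and hexokinases, 0 passed in each comparison. Ppif, the cyclophilin of the permeability pore, averaged 8.96 ± 2.90 CPM in Young BAM15 and 24.4 ± 33.5 CPM in Young CTRL (SD, n = 6 and 7, log2 difference -1.44 ± 0.51, SE, adjusted p = 0.271), and without Young CTRL 1 the log2 difference was -0.40. With age alone Ppif gave -1.17 ± 0.51 (SE, adjusted p = 0.501), or -0.12 without the same library, and with BAM15 in aged mice Vdac3 had the smallest p, at -0.91 ± 0.57 (SE, adjusted p = 0.662).

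Ucp2 and Ucp3 are known targets of the PPAR nuclear receptors, which fatty acids activate, so regulators and targets of that pathway were set beside them. Of 10 PPAR regulators and coactivators 0 passed. Ppargc1a, the coactivator PGC-1alpha, averaged 11.8 ± 4.15 CPM in Aged BAM15 and 6.17 ± 4.30 CPM in Aged CTRL (SD, n = 5 and 6). The log2 difference was 0.94 ± 0.44 (SE, edgeR adjusted p = 0.532). Limma-voom called it at 1.24 ± 0.36 (SE, adjusted p = 0.0403), as it called 6.06% of all genes in that comparison. The nuclear receptor Esrra had the smallest p of the list with age alone, at -0.65 ± 0.27 (SE, adjusted p = 0.456), and Nrf1, a regulator of respiratory genes, in Young BAM15 against Young CTRL, at 0.73 ± 0.42 (SE, adjusted p = 0.462).

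With BAM15 at the same age 0 of 17 PPAR target genes of fatty acid use passed, and most had negative differences. In Aged BAM15 against Aged CTRL 13 of 17 were negative, with a median log2 difference of -0.52 beside 0.02 over all genes, and in Young BAM15 against Young CTRL 14 of 17 were, with a median of -0.50 beside 0.03. Without the 4 libraries with low mt-Rnr2 these medians were -0.69 and -0.41. Plin2, a coat protein of lipid droplets, averaged 311 ± 140 CPM in Aged BAM15 and 586 ± 181 CPM in Aged CTRL (SD, n = 5 and 6, log2 difference -0.91 ± 0.32, SE, adjusted p = 0.386). In Young BAM15 it averaged 194 ± 62.0 CPM, against 437 ± 145 CPM in Young CTRL (SD, n = 6 and 7, log2 difference -1.17 ± 0.29, SE, adjusted p = 0.179). Limma-voom called Plin2 in both comparisons, at -1.39 ± 0.26 in aged mice (SE, adjusted p = 0.00448) and -1.01 ± 0.22 in young mice (SE, adjusted p = 0.0237), and DESeq2 called it in young mice (adjusted p = 0.0131). Of the 15939 genes tested, limma-voom called 966 in aged and 631 in young mice, and DESeq2 called 162 in young mice. Against these negative medians, Ucp3 had 0.92 and 0.00 and Ucp2 -0.72 and -0.04 in the same comparisons, in aged and young mice. Without the 4 libraries with low mt-Rnr2, Ucp3 had -0.25 and 0.44 and Ucp2 -0.60 and -0.19. Lists and members were measured in the same mice, so their values stand side by side with no test of likeness.

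**Figure D4:**
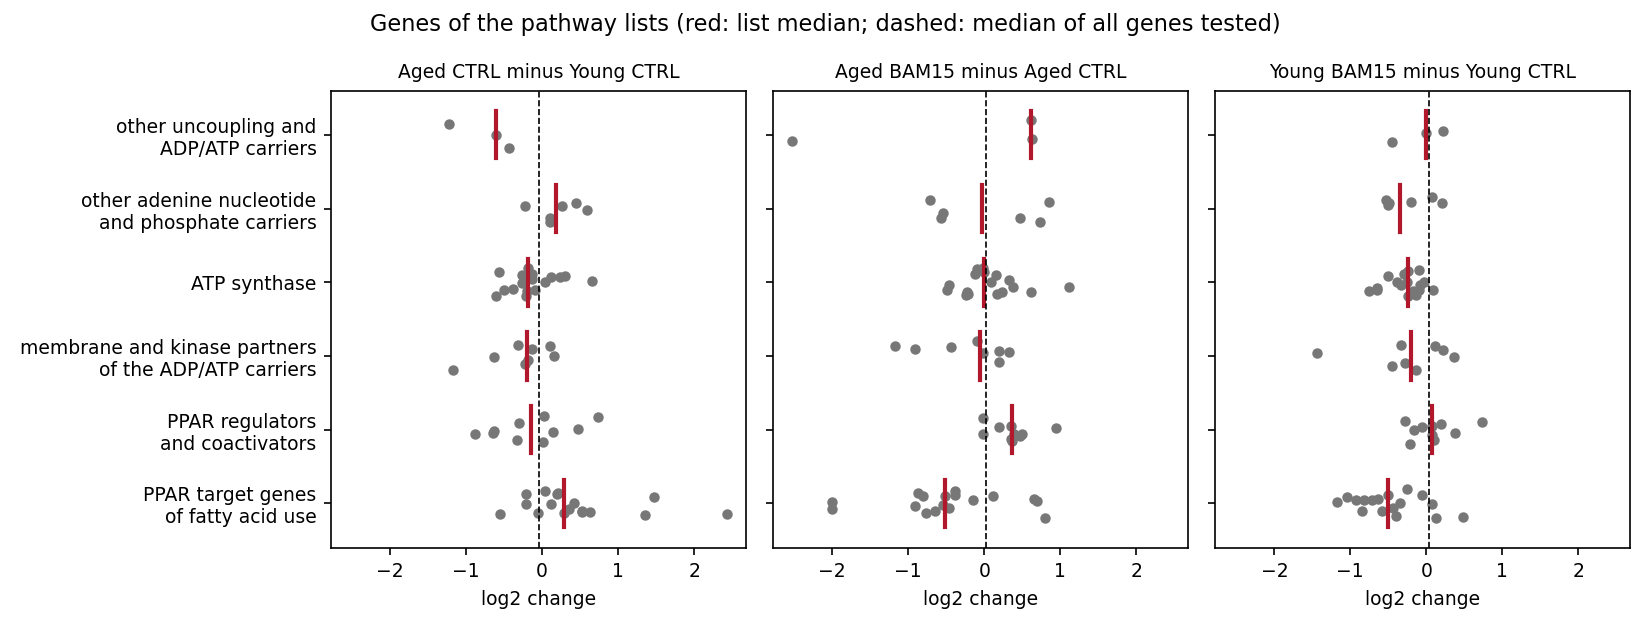
Log2 differences of the genes of 6 pathway lists in 3 comparisons (grey points), with the list medians (red) and the median of all genes tested (dashed). PPAR target medians lie at -0.52 and -0.50 with BAM15 in aged and young mice and at 0.29 with age alone.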

How the data were processed

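RNA of 24 libraries, 1 per mouse, was measured by QuantSeq. The authors deposited raw counts for Ensembl gene identifiers. A second deposited table gives signal values, in which each count stands divided by the size factor of its library. The submitters' processing notes name R 3.4.3, DESeq2 1.18.1 and GRCm38; no source used here names the aligner, the counter or the gene models. Members were found by symbol in the signal table, and every value came from the counts. The deposited table held 17541 genes with a smallest total of 72 counts.

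filterByExpr kept 15939 genes and removed 1602, and all 4 members passed. Counts were scaled with TMM factors, and edgeR 4.0.16 (R 4.3.3) fitted its robust quasi-likelihood model to all 4 groups, with 20 residual degrees of freedom, and tested with F tests. The common biological coefficient of variation was 0.621, which limits what 5 to 7 mice a group can show. P values were adjusted after Benjamini-Hochberg across the genes kept, with a threshold of 0.05. CPM use the scaled library totals, and log2 CPM a prior count of 2. SE are of log2 differences.

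Alternatives were other factors, no filter, DESeq2 1.42.0, limma-voom 3.58.1 with quality weights, only the groups compared, marker covariates, the replicate number as a block, each library left out, and 2 exclusions of libraries added after the data were seen. Replicate numbers are not said to pair mice. Deviations from group means correlated with a median r of -0.04 in 33 pairs of the same number and 0 in 182 others, which shows no likeness by number but cannot exclude pairing. No library copied another (chi-square per gene 21.1 to 697 in 61 pairs within groups).

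The members, lists and markers were chosen with earlier results of these data known. Named were the members, every measured gene of the list of other uncoupling and ADP/ATP carriers, called genes of each list or the 1 with the smallest p for Aged CTRL against Young CTRL and for BAM15 against CTRL at each age, and the 5 genes most like each member among genes of at least 5 CPM without predicted genes. Some genes that this rule names are not reported here. Sequences are from RefSeq and GENCODE M21.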

Additional observations from a re-analysis of the deposited data

Results flagged for a closer look

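Of 16 groups of member values, 3 held a library whose gap to the nearest other was large against the range of its group. The limit used gives about 1 flag in 20 separate groups by chance where values are normally spread. The gaps were taken on CPM without a log scale, and the 16 groups share the 24 libraries, so this rate is only a rough guide. Slc25a4 was at 1737 CPM in Young BAM15 3, over 188 to 361 CPM in the other Young BAM15 libraries, with a gap of 0.888 of the range. It was at 1428 CPM in Young CTRL 7, over 233 to 491 CPM in the other Young CTRL libraries, with a gap of 0.785. Acta1 was at 14545 and 14063 CPM in the same libraries, the highest levels of the 24. Slc25a5 was at 96.3 CPM in Young BAM15 1, over 57.9 to 72.2 CPM in the other Young BAM15 libraries, with a gap of 0.627, just past the limit used. Young BAM15 1 was also the library of its group with the lowest Ucp2, at 16.1 CPM, and 1 of the 5 in which Ucp3 lay above Ucp2.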

How the results depend on the processing

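Of 812 alternative values of the members' log2 differences, 727 kept direction and side of the threshold, 84 changed sign while staying above the threshold, and 1 passed it: limma-voom with quality weights called Slc25a5 in Aged BAM15 against Aged CTRL (-0.70), and so 1 member there and 1 member in the test of any difference among the 4 groups. No other setting called a member, and in the 24 fits without 1 library the number of members called was 0 in each comparison.

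Counts of genes called moved more. In Aged CTRL against Young CTRL, with 33 called, DESeq2 called 179, limma-voom 145, the groups compared alone 18, the marker covariates 50, the replicate block 5, the fit without the low mt-Rnr2 libraries 79 and that without the Acta1-rich libraries 17, and 20 to 46 were called without 1 library. In Aged BAM15 against Aged CTRL, with 0 called, DESeq2 called 103, limma-voom 966, and 0 to 67 were called without 1 library. In Young BAM15 against Young CTRL, with 0 called, DESeq2 called 162, limma-voom 631, the covariates 6, and 0 to 1 were called without 1 library. In Aged BAM15 against Young BAM15, with 68 called, DESeq2 called 370, limma-voom 302, the groups alone 17, the covariates 39, the replicate block 13, the fit without low mt-Rnr2 27 and that without high Acta1 31, and 14 to 245 were called without 1 library. In Aged BAM15 against Young CTRL, with 205 called, the counts in the same order were 768, 1633, 29 and 17 under DESeq2, limma-voom, the groups alone and the replicate block, 105 without low mt-Rnr2, 111 without high Acta1 and 46 to 648 without 1 library. The difference between both BAM15 effects, with 0 called, had 2 under DESeq2 and 0 under limma-voom and without any 1 library. The 4-group test, with 393 called, had 1366 under DESeq2, 2655 under limma-voom, 257 with covariates, 52 under the replicate block, 166 without high Acta1 and 197 to 825 without 1 library. The cause of these moves was not tested.

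Values that changed sign follow, none of them past the threshold. For Ucp3 in Young BAM15 against Young CTRL, which was 0.00 in all libraries, the sign turned at -0.02 with the groups compared alone and -0.09 without high Acta1, and further values that round to 0.00 turned for Ucp2, Ucp3 and Slc25a5. Under limma-voom, Ucp2 gave 0.04 in Young BAM15 against Young CTRL, Ucp3 -0.05 in Aged CTRL against Young CTRL, -0.06 in Aged BAM15 against Young BAM15 and -0.01 in the difference between both effects, Slc25a4 -0.03 and -0.05 with BAM15 in aged and young mice, and Slc25a5 -0.05 in Aged BAM15 against Young BAM15 and -0.28 in the difference between both effects. Without low mt-Rnr2, Ucp3 gave -0.25, -0.33 and -0.68 in Aged BAM15 against Aged CTRL, Aged BAM15 against Young BAM15 and the difference of effects, Slc25a4 -0.12 in Aged BAM15 against Aged CTRL and -0.16 in the difference, and Slc25a5 -0.01 in Aged CTRL against Young CTRL, -0.16 in Aged BAM15 against Young BAM15 and -0.15 in the difference. Without high Acta1, Slc25a4 gave 0.37 in Aged CTRL against Young CTRL, -0.32 in Young BAM15 against Young CTRL, 0.80 in Aged BAM15 against Young BAM15 and 0.48 in Aged BAM15 against Young CTRL. With covariates, Slc25a4 gave 0.10 in Aged CTRL against Young CTRL, -0.19 in Aged BAM15 against Aged CTRL and -0.46 in the difference, and Slc25a5 0.08 in Aged BAM15 against Young CTRL. The replicate block, for numbers that are not said to pair the mice, gave Slc25a4 0.27 in Aged CTRL against Young CTRL, 0.08 in Aged BAM15 against Young BAM15, 0.33 in Aged BAM15 against Young CTRL and -0.19 in the difference. It called no member.

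Without 1 library, the log2 differences with a sign change ran from -0.04 to 0.32 for Ucp2 in Aged CTRL against Young CTRL, from -0.18 to 0.18 for Ucp2 in Young BAM15 against Young CTRL, from -0.10 to 0.62 for Ucp3 in Aged CTRL against Young CTRL and from -0.15 to 0.45 for Ucp3 in Young BAM15 against Young CTRL. Those of Slc25a4 ran from -0.52 to 0.35 in Aged CTRL against Young CTRL, -0.07 to 0.47 in Aged BAM15 against Aged CTRL, -0.82 to 0.60 in Young BAM15 against Young CTRL, -0.29 to 0.77 in Aged BAM15 against Young BAM15, -0.24 to 0.48 in Aged BAM15 against Young CTRL and -0.47 to 0.94 in the difference. Those of Slc25a5 ran from -0.27 to 0.24 in Aged BAM15 against Young CTRL and -0.01 to 0.40 in the difference. The Ucp3 difference of Aged BAM15 from Aged CTRL was 0.45 without Aged BAM15 5. Only the groups compared could not be used for the difference of effects or the 4-group test. Each member had at least 90 counts in every library, and the SE of its differences covers the spread among mice.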
